A study of Mus musculus with 61 samples.

Results

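SMAD4-only sites are the SMAD4 peaks of WT microglia that shared no base with a SALL1 peak of WT microglia. Of 4024 reproducible WT SMAD4 peaks, 1772 met this rule and 2252 overlapped at least 1 of 15410 SALL1 peaks. The study text describes longer lists of both factors, so these counts and every overlap share hold for the lists used here, and a site without SALL1 is one without a peak in this list. The rule read the positions of both peak lists, so the absence of SALL1 is a choice and not a finding. SMAD4 ChIP-seq came from 2 libraries labelled mutant and 2 WT libraries of microglia, sorted as CD45+ CD11b+ CX3CR1+ cells. H3K27ac, a histone mark of active promoters and enhancers, was measured in microglia of Sall1 enhancer knockout (EKO) and WT mice, with 2 libraries per genotype. The same mark was measured in PU1+, NeuN+ and Olig2+ brain nuclei, the populations of microglia, neurons and the oligodendrocyte lineage, with 2 EKO and 2 WT libraries each. SALL1 came from 2 libraries each of WT, PWK and Spret microglia, and p300 from 3 WT libraries, of which library 1 is labelled microglia and the other libraries PU1+ nuclei. These mice are C57/Bl6 except PWK and Spret, which are wild-derived inbred strains. EKO mice carry a homozygous germline deletion of part of a distant Sall1 enhancer, so every cell type of these mice lacks it. Ages are not given in the labels, and nothing in them says that libraries of a group came from separate animals.

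The labels of the mutant SMAD4 libraries disagree. Their titles and genotype fields name a conditional SMAD4 deletion, while their descriptions, their inputs and the study text name the Sall1 EKO. They are called the libraries labelled mutant throughout, and a conditional SMAD4 deletion and the EKO cannot be told apart by the labels. The study text also places SALL1 and SMAD4 in sorted nuclei, where the labels say whole-cell microglia.

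SMAD4 is the shared partner of the receptor-activated SMADs, SMAD2 and SMAD3 downstream of TGF-β and activin receptors and SMAD1, SMAD5 and SMAD9 downstream of BMP receptors. SMAD complexes bind weakly to short DNA elements and depend on other factors for much of their choice of sites. Negative feedback is a known feature of the pathway, because SMAD7, SMAD6, SKI and SKIL (SnoN) restrain the signal that induces them. TGF-β signalling is required for the mature state of microglia, in which the zinc-finger factor SALL1 is expressed.

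Sequences of 6 SMAD4-only sites that the results turn on were read from RefSeq GRCm38.p6, which is mm10, as the central 200 bases of each peak. Skil carried the highest score, Pmepa1 is a further feedback gene, Fam102b and Tm2d1 were the strongest sites absent from the list of the libraries labelled mutant, Cdk5rap3 was among the largest losses of H3K27ac and Nrip1 among the largest gains. Capitals mark CAGAC on either strand (GTCTG) and the palindrome GTCTAGAC.
Skil (chr3:31094620-31094819, plus strand): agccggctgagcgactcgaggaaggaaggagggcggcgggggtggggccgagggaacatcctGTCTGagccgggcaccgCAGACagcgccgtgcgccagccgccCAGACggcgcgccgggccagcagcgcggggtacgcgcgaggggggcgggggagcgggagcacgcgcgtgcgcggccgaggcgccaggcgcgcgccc
Pmepa1 (chr2:173334957-173335156, plus strand): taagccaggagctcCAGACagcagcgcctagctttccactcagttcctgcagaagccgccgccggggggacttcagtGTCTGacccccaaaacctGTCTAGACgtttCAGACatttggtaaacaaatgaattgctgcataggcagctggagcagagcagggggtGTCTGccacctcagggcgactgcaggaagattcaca
Fam102b (chr3:109043551-109043750, plus strand): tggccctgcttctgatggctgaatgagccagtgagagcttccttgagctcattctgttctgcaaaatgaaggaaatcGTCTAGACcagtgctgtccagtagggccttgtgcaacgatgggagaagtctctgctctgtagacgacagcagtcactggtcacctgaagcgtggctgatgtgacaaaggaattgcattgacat
Tm2d1 (chr4:98108719-98108918, plus strand): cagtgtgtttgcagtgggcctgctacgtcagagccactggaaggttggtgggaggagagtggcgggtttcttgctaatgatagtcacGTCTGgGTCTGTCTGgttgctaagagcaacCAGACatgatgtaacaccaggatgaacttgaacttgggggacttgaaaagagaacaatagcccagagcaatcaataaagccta
Cdk5rap3 (chr11:96906681-96906880, plus strand): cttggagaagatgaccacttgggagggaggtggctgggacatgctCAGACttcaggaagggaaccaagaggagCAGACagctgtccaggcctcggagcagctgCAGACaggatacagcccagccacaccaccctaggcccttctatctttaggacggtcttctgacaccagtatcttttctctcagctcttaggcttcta
Nrip1 (chr16:76226586-76226785, plus strand): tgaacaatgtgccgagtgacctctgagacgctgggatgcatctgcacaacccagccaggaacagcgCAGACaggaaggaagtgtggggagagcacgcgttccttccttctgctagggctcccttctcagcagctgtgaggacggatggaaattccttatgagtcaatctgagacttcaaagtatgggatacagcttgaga
The Skil window held 3 copies of CAGAC, the Tm2d1 window 4, the Cdk5rap3 window 3 and the Nrip1 window 1. Pmepa1 held 4 copies of CAGAC and 1 palindrome, and Fam102b held the palindrome with 0 copies of CAGAC.

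Over the central 300 bases, counted on both strands, CAGAC was present in 70.8% of SMAD4-only sites, against 75.4% of SMAD4 sites with SALL1. At distal sites, over 1000 bp from a transcription start site, the order was reversed, with 82.4% and 76.8%. At promoter sites the shares were 55.7% and 61.8%. The same letters were present in 56.4% of p300 peaks and in 49.5% of RefSeq promoters of that length. The palindrome GTCTAGAC was present in 3.22% of SMAD4-only sites and 2.00% of SMAD4 sites with SALL1, against 0.447% of p300 peaks and 0.215% of promoters. Among the 100 SMAD4-only sites with the highest scores the palindrome was found in 17.0% and CAGAC in 91.0%. The palindrome holds no CAGAC or GTCTG, so the counts of these elements are separate.

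Motifs of the microglial lineage were less frequent at SMAD4-only sites. GAGGAAGT, a PU.1 element, was present in 13.1% of them and in 21.1% of SMAD4 sites with SALL1. It was present in 14.1% of p300 peaks and 3.11% of RefSeq promoters. For GGAANTGAA, an element shared by ETS and IRF factors, the shares were 5.64% and 13.1%, against 7.81% of p300 peaks and 2.36% of promoters. For TATTTTTA, part of a MEF2 element, they were 1.02% and 4.13%, against 3.32% of p300 peaks and 2.70% of promoters. GC-rich letters went the other way. GGCGC, a GC-rich element described for SMAD proteins, was present in 47.4% of SMAD4-only sites and 13.4% of sites with SALL1. Among p300 peaks 27.6% held it, and among promoters 37.1%. GGGCGG, an SP/KLF element that can share letters with GGCGC, was present in 44.5% and 12%, against 24.5% of p300 peaks and 35.9% of promoters. The median GC content was 58.3% and 50.3%, with 70.7% at SMAD4-only promoter sites and 54.0% at distal ones. Among distal sites alone, GAGGAAGT was present in 17.9% of SMAD4-only sites and 21.5% of sites with SALL1, and the palindrome in 4.28% and 2.16%. For GGCGC the distal shares were 18.8% and 10.2%, and for GGGCGG 17.2% and 8.53%. At promoter sites they were 84.9% and 44.3% for GGCGC, and 80.3% and 45.3% for GGGCGG. Each match is a description of letters, and the shares of sites have no error from replicates because each group was deposited as 1 list.

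SMAD4-only sites lay at promoters more often than the rest of the SMAD4 list, and no test of differences between these sets of peaks was made. A transcription start site (TSS) of a protein-coding gene lay within 1000 bp of the centre at 767 SMAD4-only sites (43.3%), against 212 SMAD4 sites with SALL1 (9.41%). Exons held the centre of 18.1% of SMAD4-only sites and 5.60% of sites with SALL1, introns 42.6% and 49.0%, and intergenic sequence 39.3% and 45.4%. The nearest protein-coding TSS named 1452 genes, of which 231 had more than 1 SMAD4-only site. Sites within 1000 bp of a TSS are called promoter sites and all others distal sites.

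**Figure D1:**
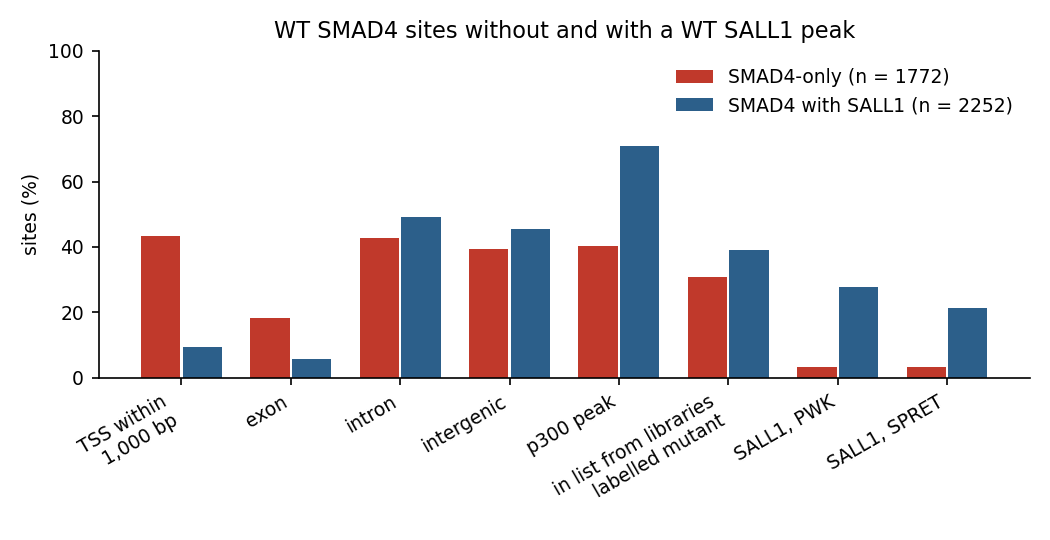
Percent of SMAD4-only sites (left bar, n = 1772) and of SMAD4 sites with SALL1 (right bar, n = 2252) at a TSS within 1000 bp, in exons, introns and intergenic sequence, and with 1 bp of overlap with other peak lists. SMAD4-only sites reach 43.3% at promoters against 9.41%, and 40.2% with p300 against 70.9%.

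Scores were lower in the SMAD4-only set, with a median enrichment score of 34.0 (range 15 to 678) against 53.0 (range 15 to 495) at sites with SALL1. This score was given by the authors for each peak and serves here to rank peaks within a list. The set held the single highest peak of the whole list. Of the 40 highest peaks 10 were members, and of the 500 highest 107. Both counts are below the share of the set in the list, which is 1772 of 4024 peaks. Scores above 100 were carried by 88 SMAD4-only sites (4.97%) and 363 sites with SALL1 (16.1%). Among SMAD4-only sites, the share at promoters was 52.1% in the lowest quartile of the whole list and 23.3% in the highest, so the weak members were more often promoter sites.

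The 10 highest members were led by genes of the SMAD pathway itself. The peak at Skil, which encodes SnoN, a repressor of SMAD-dependent transcription, had a score of 678, lay at chr3:31094550-31094888, 339 bp upstream of the TSS, and ranked 1 in both the list of the libraries labelled mutant and the WT list. The peak at Ski, the founding member of the same repressor family, had a score of 366 and lay in an intron 4988 bp downstream of the TSS (chr4:155217378-155217716). Smad7, an inhibitory SMAD, had a score of 358 at 326 bp upstream of its TSS (chr18:75367034-75367372). Smad6, the other inhibitory SMAD, had a score of 228 at 6 bp upstream of its TSS (chr9:64021896-64022234). The remaining members of this group were nearest to Prpf40b (302, in an intron of Fmnl3), Spsb1 (259), Sowahc (256), Btbd19 (249), Fance (237, in an intron of Ppard) and Pan3 (230), where the number is the score. Of these 10 sites, all were also in the list of the libraries labelled mutant.

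Genes of the TGF-β and BMP pathway were frequent as nearest genes. Of 42 annotated genes in the list, 20 (47.6%) had a SMAD4-only site, against 1452 of 21924 protein-coding genes (6.62%), and 12 (28.6%) had a SMAD4 site with SALL1, against 6.86% of all genes. For 10 of the 20 no SMAD4 site with SALL1 was nearest. Among ligands and receptors, sites were nearest to Tgfb1, Tgfbr1, Tgfbr2, the co-receptor gene Eng, and the activin and BMP receptor genes Acvr2b, Acvrl1 and Bmpr2. Among signal transducers, Smad3 had 1 site at its promoter. Feedback inhibitors held most sites, with 5 each at Ski and Smad7, 4 at Pmepa1, which encodes a membrane protein that restrains SMAD activation, and 2 each at Skil, Smad6 and Smurf1. Smurf1 and Smurf2 encode ubiquitin ligases that act on SMADs and receptors. Known targets with a site included Id2 (4 sites) and Id3 (1 site). The list was drawn up with earlier results of these data known, and no test of it was made.

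The genes with the most SMAD4-only sites were Tle3 with 7 and Bcor, Prex1, Ski and Smad7 with 5 each. TLE3 and BCOR are transcriptional corepressors and PREX1 is an exchange factor for the GTPase RAC. The 7 sites of Tle3 spread from 214014 bp upstream to 58267 bp downstream of its TSS, with scores of 31 to 99. These genes also had SMAD4 sites with SALL1, 1 at Tle3, 2 at Bcor, 3 at Prex1, 1 at Ski and 4 at Smad7.

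Of the other lists, 18 of 39 microglia identity genes (46.2%) had a SMAD4-only site, while 31 (79.5%) had a site with SALL1. Their strongest members were nearest to Egr1 (score 149), Itgb5 (117), P2ry6 (117) and Rhob (105). Macrophage lineage factors had SMAD4-only sites at 13 of 26 genes, among them Spi1, which encodes PU.1, Irf8, Runx1 and Cebpa. AP-1 and immediate early factors had them at 9 of 21 genes, with Junb (score 93), Fos (50) and Jun (38). Border macrophage genes had 1 of 17 (Stab1, 5.88%), interferon response genes 1 of 17 (Irf8, 5.88%) and lipid and disease-associated genes 2 of 24 (Cd9 and Cst7, 8.33%). These shares were near the 6.62% of all protein-coding genes. Cytokine and innate activation genes had 5 of 29 (17.2%). The shares of lineage factors (50.0%), identity genes (46.2%) and AP-1 and immediate early factors (42.9%) were close to the 47.6% of the TGF-β and BMP list. A high share was thus not particular to that list. A SMAD4 site with SALL1 was nearest to 57.7% of lineage factors and 33.3% of AP-1 and immediate early factors. For cytokine, lipid and disease-associated, border macrophage and interferon genes this share was 31.0%, 33.3%, 17.6% and 5.88%. Over all protein-coding genes it was 6.86%.

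The p300 co-activator, a histone acetyltransferase, was found at fewer SMAD4-only sites. A p300 peak overlapped 712 of 1772 SMAD4-only sites (40.2%) and 1597 of 2252 sites with SALL1 (70.9%). The lower share was seen at both kinds of position, since 38.7% of promoter members and 41.3% of distal members had p300, against 72.6% and 70.7% of the corresponding sites with SALL1. It was seen within quartiles of score as well. From the lowest to the highest quartile, p300 was found at 25.7%, 41.1%, 52.6% and 60.0% of SMAD4-only sites and at 43.8%, 61.0%, 72.9% and 87.6% of sites with SALL1. SALL1 peaks of the wild-derived strains overlapped 57 SMAD4-only sites (3.22%) in PWK and 57 (3.22%) in Spret, against 27.8% and 21.4% of sites with SALL1.

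In the SMAD4 list of the libraries labelled mutant, 545 SMAD4-only sites (30.8%) were found again, against 876 sites with SALL1 (38.9%). That list held 2333 peaks, of which 912 overlapped no WT SMAD4 peak. Each list comes from 2 libraries and was deposited without values per library, so no spread between libraries can be given for these shares. They followed the score of the WT peak. From the lowest to the highest quartile, 16.3%, 28.2%, 35.3% and 69.0% of SMAD4-only sites were found again, against 12.4%, 20%, 29.8% and 70.8% of sites with SALL1. Within quartiles 1, 2 and 3 the share was thus higher for SMAD4-only sites, and in quartile 4 it was lower, while the pooled share was lower. Among SMAD4-only sites, 34.8% of promoter sites and 27.7% of distal sites were found again.

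**Figure D2:**
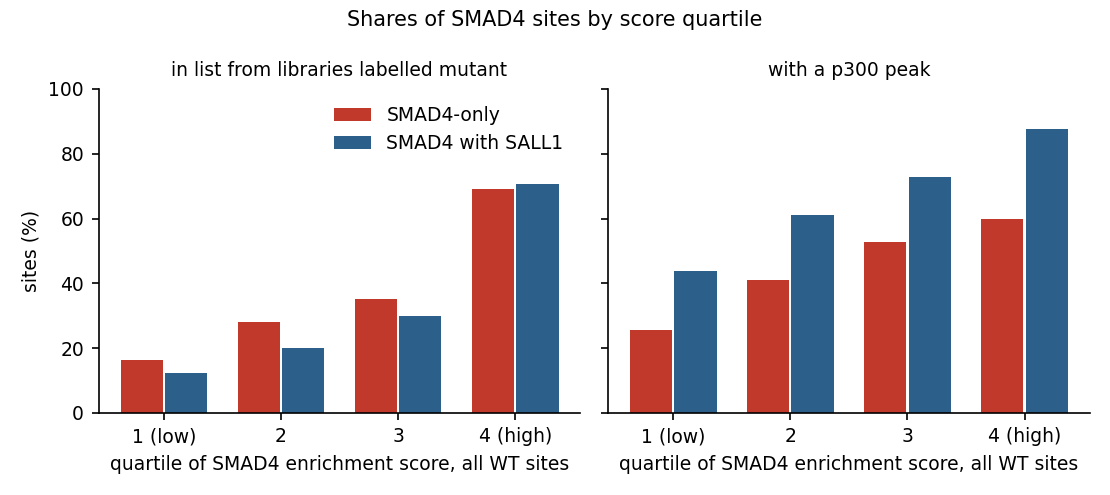
Percent of SMAD4-only sites (left bar) and SMAD4 sites with SALL1 (right bar) found again in the list of the libraries labelled mutant and with a p300 peak, by quartile of the enrichment score over all 4024 WT SMAD4 peaks. The share found again rises with score in both sets, to 69.0% and 70.8%, and the p300 share is lower for SMAD4-only sites in every quartile.

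The 5 highest SMAD4-only sites absent from the list of the libraries labelled mutant were nearest to Fam102b (score 201), Tm2d1 (132, in an intron of Nfia), Gngt2 (123, in an intron of Abi3), Idh2 (118, in an intron of Zfp710) and Ccdc12 (112). Of the 88 SMAD4-only sites with a score above 100, 77 were found again and 11 were not. The Fam102b and Tm2d1 sites were also called for lower H3K27ac in EKO microglia, while the Gngt2, Idh2 and Ccdc12 sites were not.

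H3K27ac was read in 1000 bp windows of open chromatin, in tags scaled to 10000000 per library. Of the 1772 members, 1763 overlapped a window, no window was assigned to more than 1 site, and 1612 had a mean above 16 tags and were tested. Depths were 9963453 and 13392912 tags in EKO libraries 1 and 2 and 24357798 and 10047696 tags in WT libraries 1 and 2. EKO library 1 stood apart, with a median log2 level of 6.41 over tested windows, against 4.95 in EKO library 2 and 5.57 and 5.20 in WT libraries, so the comparison was made after quantile normalisation. In that library 55.2% of non-zero tag numbers were multiples of 3, against 31.1% to 37.7% in the other libraries. At the Sall1 promoter the EKO libraries had 0 and 2.24 tags and the WT libraries 241 and 108. Promoter windows of 10 microglia markers summed to 1740 and 548 tags in EKO and 1490 and 993 in WT libraries. Of 7 border macrophage markers 4 had a promoter window, and Mrc1, Pf4 and Ms4a7 exceeded 16 tags. These windows summed to 341 and 152 in EKO and 39.4 and 28.9 in WT libraries. Windows of 2 of 4 astrocyte markers, with Slc1a3 above 16 tags, summed to 18.1 and 4.48 in EKO and 43.9 and 35.8 in WT libraries. Windows of 2 of 3 endothelial markers, with Pecam1 above 16 tags, summed to 25.1 and 13.4 in EKO and 52.5 and 40.8 in WT libraries. Both sums were lower in both EKO libraries. Windows of 5 of 6 oligodendrocyte markers, with Mog above 16 tags, summed to 55.2 and 16.4 in EKO and 36.5 and 36.8 in WT libraries. No lymphocyte marker had a promoter window, and the highest sum in any library was 25.1 tags for neurons and 8.96 tags for monocytes and neutrophils, with no marker above 16 tags. The part of these shifts in the H3K27ac results was not tested, and in such bulk samples fewer cells of a type and a lower level per cell cannot be told apart.

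EKO microglia had lower H3K27ac at 175 SMAD4-only sites, 157 of them distal, and higher H3K27ac at 26. In limma with Benjamini-Hochberg adjustment over all 55285 tested windows (adjusted p below 0.05 and a fold above 2), 175 of 1612 members (10.9%) were called losing H3K27ac, against 7.56% of all tested windows, and 26 (1.61%) were called gaining, against 8.68%. Sites with SALL1 had 195 of 2133 (9.14%) losing and 54 (2.53%) gaining. Of the losing members 157 were distal, which is 18.1% of 866 distal members, against 9.82% of distal sites with SALL1 and 10.4% of all distal windows. At promoters 18 of 746 members (2.41%) were losing, against 2.31% of all promoter windows. Gaining members were 16 distal (1.85%, against 11.1% of distal windows) and 10 promoter sites (1.34%, against 4.26% of promoter windows). These calls rest on single libraries and on the scaling. Without EKO library 1 or without WT library 1, limma called 0 members (193 losing and 27 gaining, and 135 losing and 32 gaining, at an unadjusted p under 0.05 and over 2-fold). Without EKO library 2 it called 99 losing and 8 gaining, and without WT library 2 47 and 9. On the values as deposited 9 were losing and 0 gaining, with 35 and 6 at an unadjusted p under 0.05 and over 2-fold. All 175 losing and 26 gaining members kept their direction in each of these fits. All of them had both EKO libraries on 1 side of both WT libraries after quantile normalisation. A kept direction was thus largely set by the calls and adds little to them. Members were chosen from peaks of WT cells, and their median level over WT libraries was 115 and 78.1 tags, against 46.4 and 35.8 tags for all tested windows.

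Per library, the median window of distal members had 115 and 37.7 tags in EKO libraries 1 and 2 and 85.6 and 58.7 tags in WT libraries 1 and 2. After quantile normalisation these were 5.97 and 5.90 in EKO and 6.32 and 6.27 in WT on the log2 scale, and the groups did not overlap. For promoter members the medians were 7.20 and 7.16 in EKO and 7.12 and 7.20 in WT, and the groups overlapped. All distal windows had 5.19 and 5.19 in EKO and 5.21 and 5.23 in WT. The median log2 change (EKO minus WT) was −0.39 at distal members, −0.22 at distal sites with SALL1 and −0.09 over all distal windows. At promoter members it was 0.06 and over all promoter windows 0.04. Over all members the median was −0.11, beside −0.03 over all windows, and on the values as deposited it was 0.16, beside 0.28 over all windows. With 2 libraries per genotype an exact permutation test cannot go below p = 0.333, so these medians are given without a test.

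**Figure D3:**
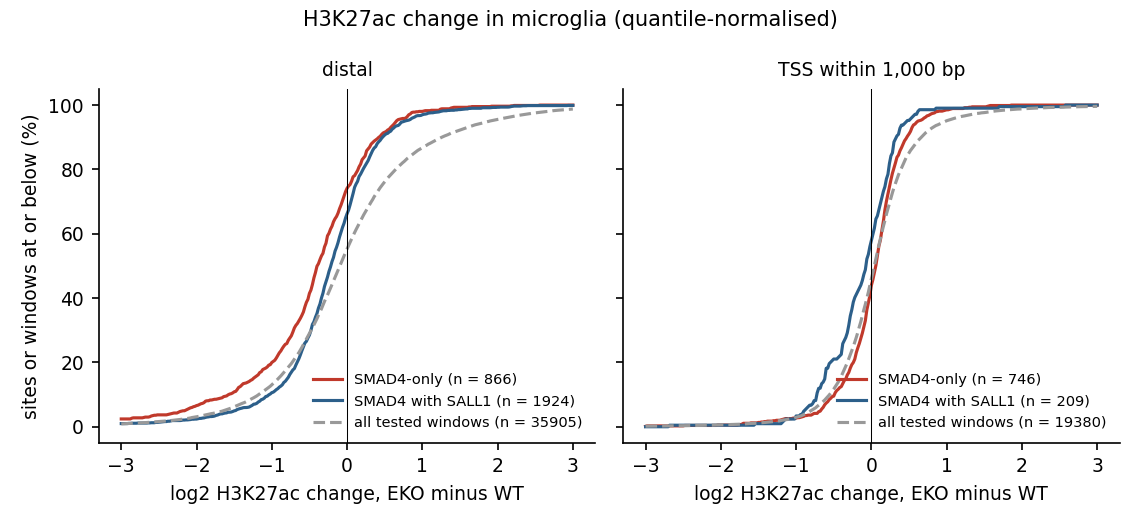
Cumulative percent of tested sites or windows (y axis) at or below a given log2 H3K27ac change, EKO minus WT (x axis), for distal regions (left) and for those with a TSS within 1000 bp (right). Below a change of 0 the distal SMAD4-only curve lies left of the others, with a median of −0.39, and the promoter SMAD4-only curve is centred near 0 with a median of 0.06.

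Distal members absent from the list of the libraries labelled mutant had a median change of −0.46 and 22.1% of 601 tested were losing, against −0.22 and 9.06% of 265 for those found again. Since sites found again had higher scores, the same was read within the highest quartile, where 18 of 60 sites absent from that list and 16 of 126 sites found again (12.7%) were losing. Distal sites with SALL1 in that quartile had 13.7% losing when absent and 6.37% when found again. Of all 175 losing members, 14.9% were found again, against 30.8% of all members. No test of these differences between sets of sites was made, because sites are not replicates of a genotype.

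The share of losing members ranged from 9.31% to 11.6% over bins of distance to SALL1. The median distance of a member to the nearest WT SALL1 peak was 9882.5 bp. Of members within 500 bp of a SALL1 peak 11.6% of 112 tested were losing, with 9.31% of 494 beyond that up to 5000 bp, 11.6% of 687 up to 50000 bp and 11.3% of 319 farther away. The promoter share in these bins was 26.1%, 39.6%, 42.6% and 56.2%. The members just inside the rule were nearest to Cd300c2, Irf2bpl and Abl1, with a SALL1 peak 0, 1 and 1 bp away. Those just outside it were nearest to Cd180, Atp13a3 and Adap2, with an overlap of 2, 2 and 7 bp.

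The 8 largest losses, with 1 site per gene, were all distal and all absent from the list of the libraries labelled mutant. The site 1224 bp inside Sall1 had 0 and 0.75 tags in EKO and 128 and 76.6 tags in WT libraries, and a SALL1 peak lay 33 bp away. These values correspond to 1 read in EKO and 388 in WT, a rate of 0.38% of WT with a 95% exact counting interval of 0.00959% to 2.13%. Counting intervals cover counting error only. The intronic site of Mlph, which encodes the melanosome transport adaptor melanophilin, had 0 and 1.49 tags in EKO and 151 and 61.7 in WT libraries. That is 2 reads in EKO and 429 in WT, a rate of 0.687% of WT (interval 0.0829% to 2.5%), and the nearest SALL1 peak was 128433 bp away. Cdk5rap3 had 3.01 and 1.49 tags in EKO and 131 and 96.5 in WT libraries, with the nearest SALL1 peak 10464 bp away. The rule that chose the largest losses and gains required both EKO libraries on 1 side of both WT libraries, so their separation is no finding.

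The intronic site of Arhgef10l had 0 and 2.99 tags in EKO and 64.5 and 48.8 in WT libraries. Prkce, which encodes protein kinase C epsilon, had 10.0 and 4.48 tags in EKO and 236 and 80.6 in WT libraries at an intronic site. Pde2a, a cyclic nucleotide phosphodiesterase, had 3.01 and 3.73 tags in EKO and 108 and 53.7 in WT libraries. DESeq2 did not call the Arhgef10l site (adjusted p = 0.0733). The nearest SALL1 peaks of these 3 sites were 329097, 59651 and 141346 bp away. Tmc7 had 17.1 and 6.72 tags in EKO and 159 and 119 in WT libraries, which is −4.12 in log2 (SE 0.314, limma adjusted p = 1.26e-08). Fam102b, the strongest of these peaks, had 35.1 and 17.2 tags in EKO and 383 and 257 in WT libraries, which is −3.95 in log2 (SE 0.226, limma adjusted p = 3.42e-10). The Tm2d1 site in Nfia had 123 and 32.9 tags in EKO and 406 and 268 in WT libraries (log2 change −2.63, SE 0.184, limma adjusted p = 4.71e-09). SALL1 peaks lay nearer to the Tmc7, Fam102b and Tm2d1 sites, at 628, 1246 and 48 bp.

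The 8 largest gains were smaller. The site 8652 bp upstream of Cdc42bpg, in an intron of Ehd1, had 276 and 96.3 tags in EKO and 28.7 and 16.9 in WT libraries, which is 2.54 in log2 (SE 0.255, limma adjusted p = 4.39e-07). Runx3, which encodes a runt-domain transcription factor, had 140 and 35.8 tags in EKO and 14.8 and 6.97 in WT libraries at a site 53993 bp downstream (2.22, SE 0.363, limma adjusted p = 0.000141). An intergenic site 146364 bp downstream of the TSS of Nrip1, a nuclear receptor corepressor gene, was assigned to it as the nearest gene. This site had 185 and 56.0 tags in EKO and 17.2 and 16.9 in WT libraries (2.16, SE 0.286, limma adjusted p = 1.30e-05). The other gains were nearest to Rplp1 (log2 change 1.90), Fkbp5 (1.84), a known glucocorticoid target, Col14a1 (1.65), Usp12 (1.61) and Pim1 (1.57), a serine/threonine kinase gene. The Rplp1 site was intergenic and 206681 bp from the TSS, and the Col14a1 site lay in an intron 73947 bp from it. Of the 8 sites, 6 were found again in the list of the libraries labelled mutant, against 0 of the 8 largest losses, and 3 of 8 in each group had p300.

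**Figure D4:**
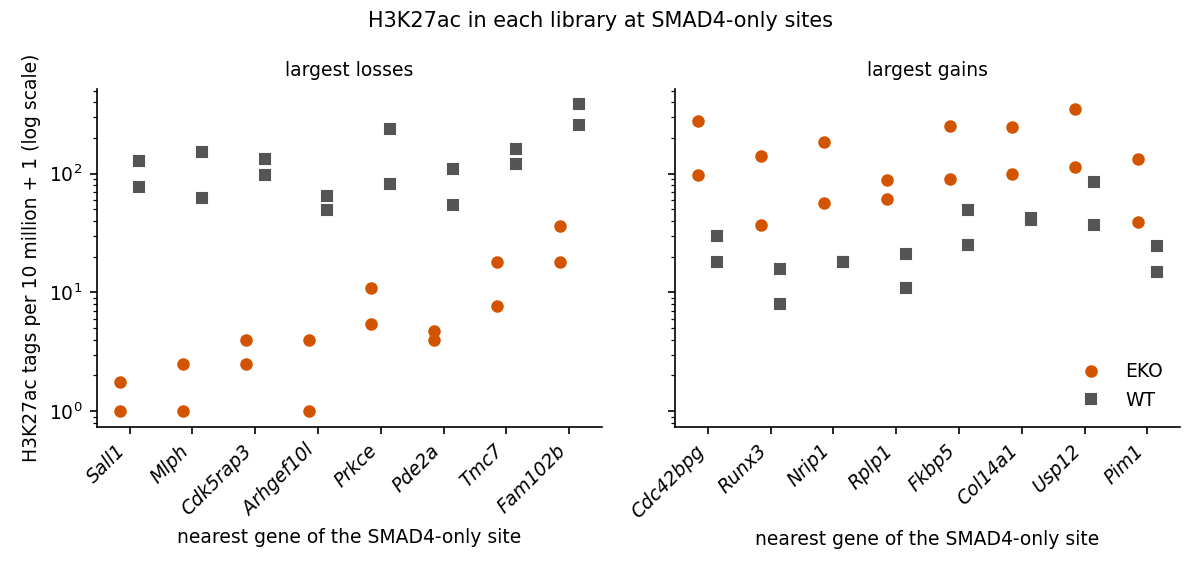
H3K27ac in tags per library plus 1 (y axis, log scale) at the SMAD4-only sites with the 8 largest losses (left panel) and the 8 largest gains (right panel), with EKO libraries as circles and WT libraries as squares. At Sall1 the EKO libraries sit at 0 and 0.75 tags and the WT libraries at 128 and 76.6, and at Cdc42bpg the EKO libraries sit at 276 and 96.3 and the WT libraries at 28.7 and 16.9.

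At the strongest SMAD4 peaks H3K27ac differed by less than 2-fold. Skil had 1986 and 762 tags in EKO and 987 and 714 in WT libraries (log2 change 0.16, SE 0.0837, limma adjusted p = 0.189). Ski had 909 and 269 tags in EKO and 592 and 415 in WT libraries (−0.29, SE 0.110, limma adjusted p = 0.063). Smad7 had 830 and 281 tags in EKO and 450 and 296 in WT libraries (0.14, SE 0.116, limma adjusted p = 0.428). EKO and WT libraries overlapped in deposited tags at all 3, and after quantile normalisation, the scale of these changes, they did not. Over the 10 highest peaks the log2 change ranged from −0.50 to 0.70, and none was called. Some changes under 2-fold had a limma adjusted p below 0.05. They were at Prpf40b (−0.50, limma adjusted p = 0.00524), Fance (−0.42, 0.00896), Pan3 (−0.27, 0.0423) and Smad6 (0.70, 0.0481).

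Among TGF-β and BMP pathway genes, 2 of 36 tested sites were losing and 2 were gaining, with a median change of −0.10. Over all tested windows the shares were 7.56% losing and 8.68% gaining with a median of −0.03, and over all members 10.9% and 1.61% with a median of −0.11, so nothing particular to the list is read from these counts. Losing sites were an intronic site of Ski 44068 bp from its TSS, with 201 and 49.3 tags in EKO and 320 and 169 in WT libraries (log2 change −1.47, SE 0.192, limma adjusted p = 1.11e-05), and a site upstream of the receptor gene Tgfbr1 with 23.1 and 11.2 tags in EKO and 30.8 and 32.8 in WT libraries (−1.44, SE 0.417, limma adjusted p = 0.0157). Gaining sites were nearest to Pmepa1, with 187 and 64.2 tags in EKO and 47.2 and 25.9 in WT libraries (1.37, SE 0.255, limma adjusted p = 0.000516), and to Smad6, 874 bp upstream of its TSS (1.04, SE 0.333, limma adjusted p = 0.0265). The main Smad6 peak had 167 and 47.8 tags in EKO and 60.8 and 33.8 in WT libraries, a log2 change of 0.70 that stayed under 2-fold. In deposited tags the groups overlapped at the Ski and upstream Smad6 sites. The Tgfbr1 site was not called by DESeq2 (adjusted p = 0.116), and the upstream Smad6 site by neither DESeq2 (adjusted p = 0.149) nor edgeR over 2-fold (0.93 in log2). Of the 39 sites of this list 21 (53.8%) were found again in the list of the libraries labelled mutant.

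Microglia identity genes had 4 of 30 tested sites losing and 0 gaining, with a median of −0.29, beside the shares of 7.56% and 8.68% over all windows and 10.9% and 1.61% over all members. The 4 were nearest to Sall1, Tgfbr1, Entpd1, which encodes the ectonucleotidase CD39 (log2 change −1.53), and Sparc, a matricellular protein gene (−1.13). Of these, Sall1 is the gene whose enhancer the EKO lacks. The Tgfbr1 site is the site already counted in the TGF-β and BMP list, and DESeq2 did not call it. Nothing particular to the list is read from these counts. The promoter site of Cx3cr1, the fractalkine receptor gene, had 366 and 120 tags in EKO and 339 and 235 in WT libraries (−0.67, SE 0.143, limma adjusted p = 0.00173), under 2-fold. At Tmem119 the site had 49.2 and 11.2 tags in EKO and 13.6 and 13.9 in WT libraries, which overlapped. Among macrophage lineage factors 0 of 21 sites were losing and 1, at Runx3, was gaining. AP-1 and immediate early factors had 0 of 13 called in either direction by limma. With so few sites, counts of 0 or 1 are near the shares over all windows (7.56% losing and 8.68% gaining). Single losing sites were nearest to Nfkb1 (−1.99) of the cytokine list and Cd9 (−2.49), a tetraspanin gene of the lipid and disease-associated list.

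In sorted nuclei, H3K27ac regions were called separately in each library. In PU1+ nuclei, called regions covered 88.3% and 84.7% of SMAD4-only sites in EKO libraries 1 and 2 and 66.8% and 94.0% in WT libraries 1 and 2. WT library 1 had the fewest called regions, 11149 against 25990 to 36057 in the other PU1+ libraries, so the shares were not compared between genotypes. In NeuN+ nuclei the shares were 53.3% and 51.3% in EKO and 51.9% and 49.8% in WT libraries, and in Olig2+ nuclei 49.4% and 48.6% in EKO and 48.1% and 46.4% in WT libraries. At sites with SALL1 the range over these 8 neuronal and oligodendrocyte libraries was 17.9% to 21.8%.

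Promoter members were covered in neuronal and oligodendrocyte nuclei more often than distal members. In WT NeuN+ nuclei 86.0% and 82.5% of promoter members lay in H3K27ac regions, against 25.9% and 24.9% of distal members. In WT Olig2+ nuclei the values were 81.1% and 76.8% at promoters and 23.0% and 23.2% at distal sites. Distal members were still covered more often than distal sites with SALL1, at 15.4% and 15.1% in NeuN+ and 15.4% and 15.8% in Olig2+ WT libraries. Sites in both PU1+ WT libraries and in no NeuN+ or Olig2+ WT library were 418 SMAD4-only sites (23.6%) and 1180 sites with SALL1 (52.4%).

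**Figure D5:**
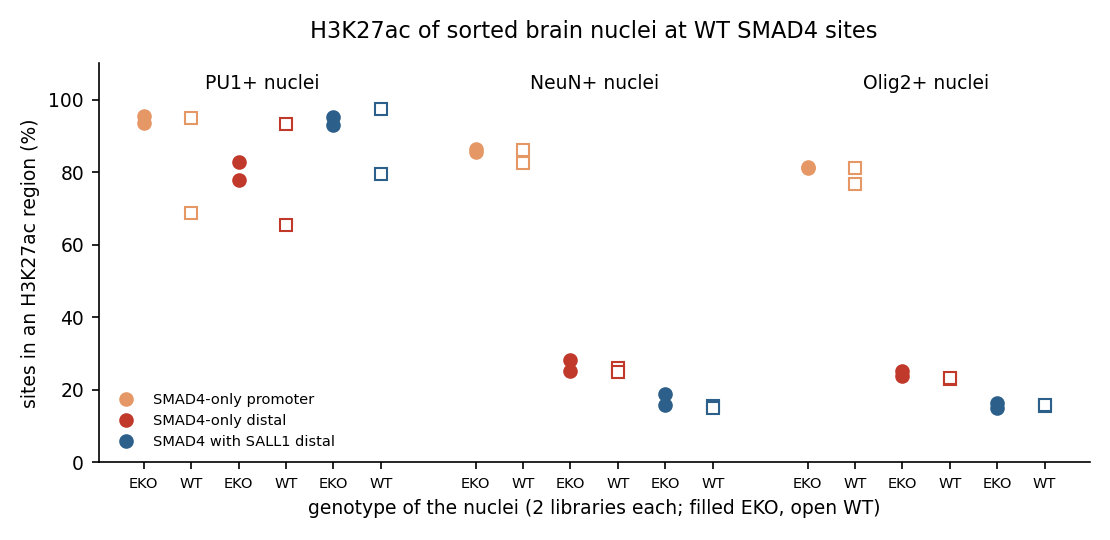
Percent of promoter SMAD4-only, distal SMAD4-only and distal SMAD4 with SALL1 sites (y axis) that overlap a called H3K27ac region, by cell population and genotype, with 1 point per library and EKO left of WT. Promoter members lie at 76.8% to 86.3% in neuronal and oligodendrocyte nuclei, and distal members at 23.0% to 28.2%.

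The sites called in microglia were set against all members within each PU1+ library, because the lists differ in length. Of the 175 losing members, 67.4% and 63.4% lay in regions of EKO libraries 1 and 2, where all members had 88.3% and 84.7%. In WT libraries 1 and 2 the losing members had 71.4% and 96.6%, where all members had 66.8% and 94.0%. Of the 26 gaining members, all lay in regions of both EKO libraries, and 30.8% and 88.5% in those of WT libraries 1 and 2. These shares were not tested. In any NeuN+ or Olig2+ WT library, 79 of the 175 losing members (45.1%) lay in a called region. Taken singly, these libraries covered 46.4% to 51.9% of all members and 23.0% to 25.9% of distal members. The share of all members in any of them was not counted, so nothing particular to losing members is read from this value.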

How the data were processed

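Mouse microglia and brain nuclei were profiled by ChIP-seq in 61 samples, of which 30 are inputs, which were not used. The authors mapped reads to mm10 with Bowtie2 and used HOMER, and the submitters' processing notes give no versions. The deposited lists of SALL1, SMAD4 and p300 peaks hold 1 set per group, called by the authors per library and kept by irreproducible discovery rate (IDR), each peak with a scaled IDR score and an enrichment score. The deposited microglia table gives a tag signal scaled to 10000000 per library, in 133129 windows. Regions of sorted nuclei were called in each library and, per the file headers, carry a normalised tag signal and a fold ratio over control, but here positions alone were used. The SALL1 list of EKO microglia was not used here. Depths of the peak and nuclei lists are not given in the sources used here.

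Overlap meant 1 bp. Each site took the nearest TSS of a protein-coding gene in GENCODE M21 (basic set, GRCm38) and the overlapped window whose centre was nearest. For windows, the TSS distance in the table was used. Windows with a mean above 16 tags were tested with limma 3.58.1 (trend, 2 residual degrees of freedom) in R 4.3.3 on quantile-normalised log2(tags + 1), EKO minus WT. A pseudocount of 1 understates changes of low windows. Every value was a whole multiple of 1 tag within 0.05 tags (100% of values in each library), and as alternatives the recovered counts of the deposited table were fitted with edgeR 4.0.16 and with DESeq2 1.42.0. The study used DESeq2. The chi-square per degree of freedom between libraries was 2.86 in EKO and 3.00 in WT, and every library was treated as a replicate of its own. The p-values measure the spread between these libraries, which may be technical.

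The members and gene lists were chosen with earlier results of these data known. Named sites were the 10 highest scores, the 8 largest called gains and losses with both EKO libraries on 1 side of both WT libraries (1 site per gene), the best site of each listed gene, the 5 highest sites found and not found in the list of the libraries labelled mutant, the genes with most sites, and 3 sites on each side of the SALL1 rule. Further called sites of listed genes, and the printed sequences, were chosen after their values were seen. Sequences with an annotated exon in the window were not printed. Some listed genes and sequences are not reported here.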

Additional observations from a re-analysis of the deposited data

How the results depend on the processing

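The number of SMAD4-only sites stayed between 1205 and 1970 over 4 other rules. The p300 share was 34.5% with an overlap of at least 0.5 of the peak, 42.6% within 500 bp and 46.3% for SMAD4 peaks at IDR below 0.01, where the share found in the list of the libraries labelled mutant was 37.6% and that at promoters 38.3%. Within 3000 bp of a TSS the promoter share was 50.7%. Regions found in both libraries of a group held 82.5% (PU1+ EKO), 66.4% (PU1+ WT, against a mean of 80.4% over its libraries), 49.0% (NeuN+ EKO), 47.0% (NeuN+ WT), 46.5% (Olig2+ EKO) and 43.1% (Olig2+ WT) of sites.

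The H3K27ac calls depend on scaling and on single libraries. On the values as deposited, limma called 9 losing and 0 gaining members (35 and 6 at an unadjusted p under 0.05 and over 2-fold), and the median change reversed to 0.16, with 0.28 over all windows. After median centring, chosen after seeing the data, the median was −0.14, and with DESeq2 −0.13. On the values as deposited without EKO library 1, also chosen later, 131 were losing, 4 were gaining and the median was −0.63, with −0.47 over all windows. Leaving out each library in turn gave 0 to 99 losing, 0 to 9 gaining and medians of −0.14 to −0.10. Without EKO library 1 and without WT library 1 no member was called at an adjusted p, with 193 and 135 losing and 27 and 32 gaining at an unadjusted p under 0.05 and over 2-fold. A group left with 1 library was assumed to vary like the other. The causes were not tested. All 175 losing and 26 gaining members kept their direction in every setting, which was largely set by the calls on the same libraries and adds little to them. With edgeR 164 of the 175 and with DESeq2 136 were called again. The distal median stayed below that of all distal windows in every setting (−0.09 against 0.23 as deposited). These settings share the same libraries, and members were chosen from WT peaks. In WT libraries 1 and 2 distal members had medians of 85.6 and 58.7 tags, against 36.1 and 28.9 over all distal windows. The part of this choice in the lower median was not tested.

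Same-numbered libraries deviated together with a correlation of 0.036 after quantile normalisation and 0.066 as deposited, and replicate numbers were not used as pairs. With 2 libraries per genotype these values cannot exclude a shared preparation. A fit with the replicate number as a block called 186 losing and 26 gaining members, with a median of −0.11. Peak and region lists hold no values per library, so the shares have no replicate error, and 151 members with low H3K27ac were not tested.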
